A study of Mus musculus with 11 samples.

Results

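The RNA of 8 genes that write, copy or remove DNA methylation was compared among otospheres, the cochlear sensory epithelium (CSE) from which they were grown, and embryonic stem cells (ESCs). The genes were Dnmt1, Uhrf1, Dnmt3a, Dnmt3b, Dnmt3l, Tet1, Tet2 and Tet3, chosen by name for their place in the pathway. Probes were matched to 7 of them through a RefSeq table of accessions. The Tet1 accession was named only in the study's lists of probes called on these arrays and further ESC arrays, so that Tet1 entered through its result. They are 8 of the 18566 named genes with a usable probe. They have 16 of the 55681 probes on the array, and all 16 were among the 47997 probes kept after dim probes were removed. Dnmt3b and Dnmt3l, the enzyme and cofactor of new methylation, were 98.0-fold and 108-fold brighter in ESCs than in otospheres, sizes that moved with the scaling of the arrays, and for Dnmt3b also with the ESC line. At the brightest probe of each gene, Dnmt3a was the single one of the 8 that was higher in otospheres (4.28-fold) and CSE (12.5-fold) than in ESCs. Between otospheres and CSE, only Dnmt3a and Tet1 passed the test at these probes, both lower in otospheres. The Dnmt3a call depended on the scaling of the arrays and on 1 CSE sample, and the Tet1 call was made at 1 of its 3 probes.

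The ESC group held 2 mouse lines with 1 array each, G4-2 (ES1) and D3 (ES2), at passage 13, grown undifferentiated without feeder cells on gelatin with serum and LIF. CSE was dissected from ICR mice aged 1 day, and otospheres, free-floating spheres formed by dissociated cells of this tissue, were passaged 1 time and cultured for 4 to 5 days before and again after passaging, in a medium with N2, B27, bFGF, IGF1 and heparan sulfate but without EGF. Straining before RNA extraction kept the solid spheres. Each dissection pooled 20 cochleae of 10 mice, so no value belongs to 1 animal, and the sources used here name no drug treatment or engineered allele in any of the 3 groups. The study asked how the transcriptome of otospheres differs from that of their tissue of origin and from that of pluripotent cells.

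Single-colour arrays were run on 2 ESC, 6 otosphere (OS1 to OS6) and 3 CSE samples. The arrays OS1 and OS2 differed from each other, and OS4 from OS5, by less than the noise between repeated spots (0.897 and 0.409 times that noise, against at least 1.55 times for the other 17 pairs within a group), so each pair was averaged and counted as 1 sample, which left 4 otosphere samples. Median spot signal was 68 to 116 against a median local background of 32 to 38, and the number of arrays limits the precision. Slide 1 carried ES1, OS1 to OS3, CSE1 and CSE2, and slide 2 the rest. The replicates are separate samples by their labels, and the study speaks of several preparations, but the sources used here do not tie each sample to a culture or litter. The p-values therefore measure the spread between these samples, which may be technical. The ESC markers Pou5f1, Zfp42, Dppa5a, Esrrb and Tdh were lower in otospheres and CSE than in ESCs. These 5 of 6 markers passed the test in both comparisons, against 15.6% of all kept probes lower in each. Zfp42 was above background on the ESC arrays alone, so it could only be called toward ESCs. The brightest probe under the name Nanog went the other way, with mean log2 signals of 8.38 in ESCs, 9.82 in otospheres and 10.03 in CSE. The study lists Nanog among the genes upregulated only in ESCs, which is the opposite direction. Whether the probe picked here measures Nanog RNA was not tested, and nothing is drawn from it. All 8 hair cell markers were higher in CSE than in ESCs, against 13.2% of all kept probes. Otospheres had less of 5 of these 8 than CSE did, against 6.19% of probes. No otosphere or ESC array measured Cdh23 above background, so that gene could only be called toward CSE.

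Cytosine methylation at CpG dinucleotides is set up by Dnmt3a and Dnmt3b, with Dnmt3l as a cofactor that has no catalytic activity of its own. It is copied at replication by Dnmt1, which Uhrf1 brings to newly replicated DNA. Tet1, Tet2 and Tet3 oxidize methylated cytosine, after which base excision repair or replication can restore the unmodified base. Pluripotent cells are known for abundant Dnmt3b, Dnmt3l and Tet1. RNA was measured here, not methylation or protein.

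The probe with the highest mean signal is reported first for each gene, as log2 of the background-corrected and quantile-normalized intensity, called the signal. An adjusted p is from limma with Benjamini-Hochberg adjustment over all 47997 probes, at a threshold of 0.05. Signals are compared between samples for the same probe and never between probes. In bulk RNA, fewer cells that express a gene and less RNA per cell cannot be told apart. The 3 comparisons share groups of samples and are not independent of each other.

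Of the 8 genes, 6 passed the test between otospheres and ESCs (Dnmt3a higher, and Dnmt1, Uhrf1, Dnmt3b, Dnmt3l and Tet1 lower), against 27.7% of all kept probes (12.1% higher and 15.6% lower). A Tet1 call was favoured in advance by how its probes were named, and without this gene the count was 5 of 7. Between CSE and ESCs, 6 passed (Dnmt3a higher, and Dnmt1, Uhrf1, Dnmt3b, Dnmt3l and Tet1 lower), against 28.8% of probes (13.2% higher and 15.6% lower), and without Tet1 5 of 7. Between otospheres and CSE, 2 passed, both lower in otospheres, against 11.0% of probes (4.84% higher and 6.19% lower), and at an unadjusted p under 0.05 it was 4, with Dnmt3b lower and Dnmt3l higher as well. Without Tet1, only Dnmt3a passed the adjusted threshold there. The F-test over the 3 groups called 6 of the 8, against 33.8% of probes, and without Tet1 5 of 7. The study's lists rest on a test over the same 3 kinds of sample, with further ESC arrays taken from other series. The Tet1 call in the F-test was therefore favoured in advance and is no independent result. The median log2 difference over the 8 genes was -2.40 for otospheres minus ESCs, -1.75 for CSE minus ESCs and -0.49 for otospheres minus CSE, where the medians over all kept probes were -0.03, -0.06 and 0.02.

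**Figure D1:**
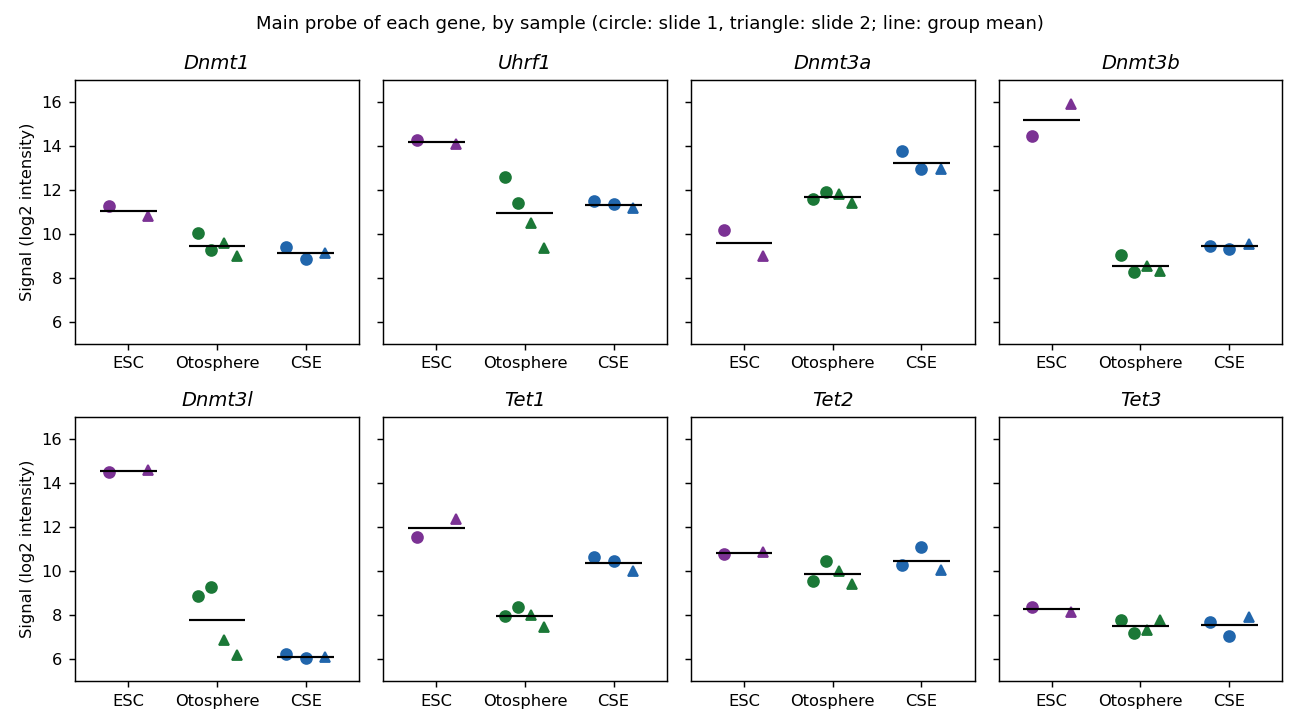
Signal (log2 intensity, y axis) of the main probe of each of the 8 genes in the 2 ESC, 4 otosphere and 3 CSE samples (x axis). Each point is 1 sample, circles are slide 1 and triangles slide 2, and lines are group means. ESC points lie above all others for Dnmt1, Uhrf1, Dnmt3b, Dnmt3l and Tet1 and below all others for Dnmt3a.

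Dnmt3b, a methyltransferase of unmethylated DNA, had a signal of 14.42 in ES1 and 15.87 in ES2. In otospheres it was 9.02 in the OS1 and OS2 mean, 8.26 in OS3, 8.54 in the OS4 and OS5 mean and 8.31 in OS6, and in CSE it was 9.44, 9.30 and 9.51. Both ESC samples stood far above every cochlear sample, D3 being the brighter of the lines. The log2 difference was -6.61 ± 0.38 (SE) for otospheres minus ESCs (adjusted p = 7.63e-06) and -5.73 ± 0.40 for CSE minus ESCs (adjusted p = 2.27e-05). All 3 probes of the gene gave the same picture, with differences of -5.27 and -6.53 at the other two for otospheres minus ESCs. Without ES1 the difference at the main probe was -7.34, without ES2 -5.89, and with 75th percentile scaling -7.57, and for CSE minus ESCs these values were -6.46, -5.00 and -6.67.

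Otosphere and CSE signals of Dnmt3b did not overlap either, the otospheres being lower by 0.88 ± 0.33 on the log2 scale, but this did not pass the test (adjusted p = 0.148). Groups did not overlap for 23.4% of probes in this comparison. The same difference had an adjusted p of 0.0309 when ESCs were left out of the fit. At the other probes the differences were -0.25 and -0.42 (adjusted p = 0.762 and 0.620).

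Dnmt3l, the catalytically inactive partner, had ESC signals of 14.49 and 14.58. Otospheres ranged widely, from 8.85 in the OS1 and OS2 mean and 9.25 in OS3 to 6.85 in the OS4 and OS5 mean and 6.16 in OS6, while CSE samples were at 6.22, 6.03 and 6.08. ESCs were far above both, and all otosphere samples but OS6, which was inside the CSE range, were above all CSE samples. The difference was -6.76 ± 0.78 for otospheres minus ESCs (adjusted p = 2.99e-04) and -8.42 ± 0.82, or 344-fold, for CSE minus ESCs (adjusted p = 1.23e-04). With 75th percentile scaling these were -7.98 and -9.94, and the first was -5.61 with a replicate block. For otospheres minus CSE it was 1.67 ± 0.68 (adjusted p = 0.187), and it was 2.93 within slide 1 and 0.43 within slide 2. Without OS6 it became 2.21 and passed the test (adjusted p = 0.0451).

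The promoter windows of these genes are shown for their CpG content, the substrate of the enzymes they encode. Sequences are from RefSeq on GRCm38.p6, the 250 bases before the annotated start, with CpG in capitals. All 8 genes matched the table, with 15 windows among them, since Dnmt1, Uhrf1, Dnmt3a and Dnmt3l have more than 1 start.

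Dnmt3b promoter window, chr2:153649199-153649448, + strand: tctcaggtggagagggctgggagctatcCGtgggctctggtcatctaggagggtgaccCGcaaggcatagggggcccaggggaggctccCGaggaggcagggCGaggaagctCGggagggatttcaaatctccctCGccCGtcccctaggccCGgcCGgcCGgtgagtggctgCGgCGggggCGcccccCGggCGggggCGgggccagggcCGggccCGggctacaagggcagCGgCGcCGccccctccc

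Dnmt3l promoter window, chr10:78042037-78042286, + strand: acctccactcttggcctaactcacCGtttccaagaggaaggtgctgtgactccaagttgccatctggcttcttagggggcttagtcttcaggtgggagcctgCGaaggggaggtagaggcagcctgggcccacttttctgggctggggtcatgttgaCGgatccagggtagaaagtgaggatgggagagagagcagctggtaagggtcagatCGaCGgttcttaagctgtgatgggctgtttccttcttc

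The Dnmt3b window holds 21 CpG, more than 83.7% of the 32851 mouse windows of that length. The first Dnmt3l window holds 5, more than 44.4% of windows, and the other two hold 4 and 3, where the median over all windows is 6 (quartiles 2 and 16). Both genes were highest in ESCs, and their windows are unlike in CpG content. Among the other members, Tet2 has the window richest in CpG, with 51 (more than 99.9% of windows), and it passed no comparison at its main probe. Which starts are used in these samples was not tested, nor was a part of CpG content in the signals.

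Dnmt3a was the exception in direction among the main probes. This enzyme shares its role with Dnmt3b, and its ESC signals were 10.15 and 8.97. The otosphere samples were at 11.56, 11.88, 11.81 and 11.38, and the CSE samples at 13.74, 12.96 and 12.93. The groups formed 3 separate steps, with ESCs lowest, otospheres between and CSE highest. Otospheres exceeded ESCs by 2.10 ± 0.36 (adjusted p = 0.00244), and CSE exceeded ESCs by 3.65 ± 0.38 (adjusted p = 1.78e-04). Without ES1 these differences were 2.69 and 4.24, and without ES2 1.5 and 3.05. Dnmt3a is represented by 1 probe, so no second probe could be set beside it. The gene has more than 1 annotated start, and which of its transcripts the probe reads was not tested. The low ESC signal is therefore that of this probe and may not hold for all Dnmt3a RNA.

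Otospheres had less Dnmt3a than CSE, by -1.55 ± 0.32 on the log2 scale or 2.93-fold (adjusted p = 0.0150). The difference was -1.62 within slide 1 and -1.34 within slide 2. It was -1.19 with an adjusted p of 0.108 when arrays were scaled to their 75th percentile, and -1.29 with an adjusted p of 0.0666 without CSE1. Otosphere levels were even, with a range of 0.51 over the 4 samples.

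Several marker lists of other cell types were also lower in otospheres than in CSE. As means of list signals, 6 erythroid genes were at 10.86 to 11.51 in CSE and 5.49 to 5.92 in otospheres, 6 neuronal genes at 11.21 to 12.39 and 6.95 to 7.98, 6 endothelial genes at 8.78 to 9.73 and 6.93 to 7.04, and 5 macrophage genes at 8.81 to 9.08 and 7.06 to 7.43. The test called 4 of 6, 5 of 6, 4 of 6 and 3 of 5 of them lower, against 6.19% of all kept probes. For Hbb-bt, Alas2, Tie1 and Elavl3 all CSE arrays and 0 of the otosphere arrays were well above background. Of these, Hbb-bt, Alas2 and Tie1 were above background on 0 of the ESC arrays too. They passed the filter on dim probes through the CSE arrays and could only be called lower, so the counts were bound to lean that way. Of 8 supporting cell markers 6 were called lower, with list means of 8.61 to 9.07 in otospheres against 11.37 to 11.74 in CSE. Prox1 among them was above background on the CSE arrays alone. Of 6 glial markers 3 were called lower, and Mbp, a myelin protein, was called higher in otospheres (1.90, adjusted p = 0.0155). The part of these cells in the Dnmt3a and Tet1 differences was not tested.

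Dnmt1, the maintenance methyltransferase, had ESC signals of 11.27 and 10.82. Otospheres were at 10.02, 9.25, 9.58 and 8.98, and CSE at 9.39, 8.85 and 9.14. Both ESC lines lay above every cochlear sample, and otospheres and CSE overlapped. The difference was -1.59 ± 0.30 for otospheres minus ESCs, or 3.01-fold (adjusted p = 0.00431), and -1.92 ± 0.32 for CSE minus ESCs (adjusted p = 0.00207). For otospheres minus CSE it was 0.33 ± 0.27 (adjusted p = 0.587).

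Uhrf1, the reader of hemimethylated DNA that recruits Dnmt1, had ESC signals of 14.24 and 14.09. It was 12.57 in the OS1 and OS2 mean, 11.38 in OS3, 10.49 in the OS4 and OS5 mean and 9.35 in OS6, against 11.48, 11.33 and 11.15 in CSE. The 3 CSE samples lay close together, inside the otosphere range, which spanned 3.21. Otospheres were 9.29-fold below ESCs (-3.22 ± 0.71, adjusted p = 0.00867) and CSE 7.19-fold (-2.85 ± 0.75, adjusted p = 0.0194). With 75th percentile scaling these were -4.00 and -3.76, and with a replicate block the first was -1.75 (adjusted p = 0.00886). These calls leaned on single samples: the adjusted p was 0.0516 for otospheres minus ESCs without ES1, and 0.0850, 0.0713 and 0.0555 for CSE minus ESCs without ES1, ES2 or CSE3. The second, dimmer probe, well above background on 5 of the 6 otosphere arrays and all others, differed by -3.12 and -3.38 (adjusted p = 0.00263 and 0.00226).

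Otospheres and CSE could not be ordered for Uhrf1. The mean difference of -0.37 ± 0.62 (adjusted p = 0.847) was made of 0.57 within slide 1 and -1.22 within slide 2, and it was 0.16 without OS6. Its first promoter window is shown because it was the only 1 of the 15 windows with an E2F core (TTCCCGC or TTGGCGC, searched on both strands), letters that 5.62% of all windows hold. A count of 1 in 15 is near that share, and the other Uhrf1 window lacked the core. Here the capitals mark CpG, as above, and TTCCCGC contains 1 of them.

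Uhrf1 promoter window, chr17:56303087-56303336, + strand: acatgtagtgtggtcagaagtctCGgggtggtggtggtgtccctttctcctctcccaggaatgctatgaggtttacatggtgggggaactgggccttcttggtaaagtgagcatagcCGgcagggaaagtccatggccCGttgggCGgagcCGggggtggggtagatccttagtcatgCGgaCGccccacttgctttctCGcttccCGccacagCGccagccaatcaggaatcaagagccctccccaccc

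A match to these letters describes the sequence and is no evidence of binding. E2F factors are known for their part at replication genes, and a part for them here was not tested. Apart from the match, a list of replication genes was set beside Uhrf1. Of 22 genes for DNA replication and division, 21 were kept, and 19 were lower in otospheres than in ESCs, 17 in CSE than in ESCs and 0 different between otospheres and CSE by limma (0 also at an unadjusted p under 0.05). Of all kept probes, 15.6% were lower in otospheres than in ESCs and 15.6% in CSE than in ESCs. Between otospheres and CSE, 11.0% passed in either direction. Mcm5, part of the replicative helicase (-4.72, adjusted p = 9.48e-04), and Ccne1, a G1 cyclin (-4.24, adjusted p = 2.52e-04), were lowest in otospheres relative to ESCs, and Ccne1 (-4.79) and the licensing factor Cdc6 (-4.29) in CSE.

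Across the otosphere samples, the mean signal of the replication list was 11.67 in the OS1 and OS2 mean, 10.57 in OS3, 10.11 in the OS4 and OS5 mean and 9.20 in OS6, the same order as for Uhrf1. In CSE it was 10.90, 10.54 and 10.42, a narrow span as for Uhrf1, and in ESCs it was 13.16 and 13.38. Dnmt1 spread less over the otosphere samples, by 1.04. Uhrf1 and Dnmt3l had a range over the 4 samples wider than 97.5% and 97.2% of the measured genes, and the slide 2 mean minus the slide 1 mean was -2.05 and -2.55. Other lists moved along the same samples, glial markers from 9.93 to 9.59, 8.76 and 8.45 and hair cell markers from 7.37 and 6.83 up to 8.28 and 8.72. Whether cell division, cell makeup or slide had a part in the spread of Uhrf1 and Dnmt3l was not tested.

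**Figure D2:**
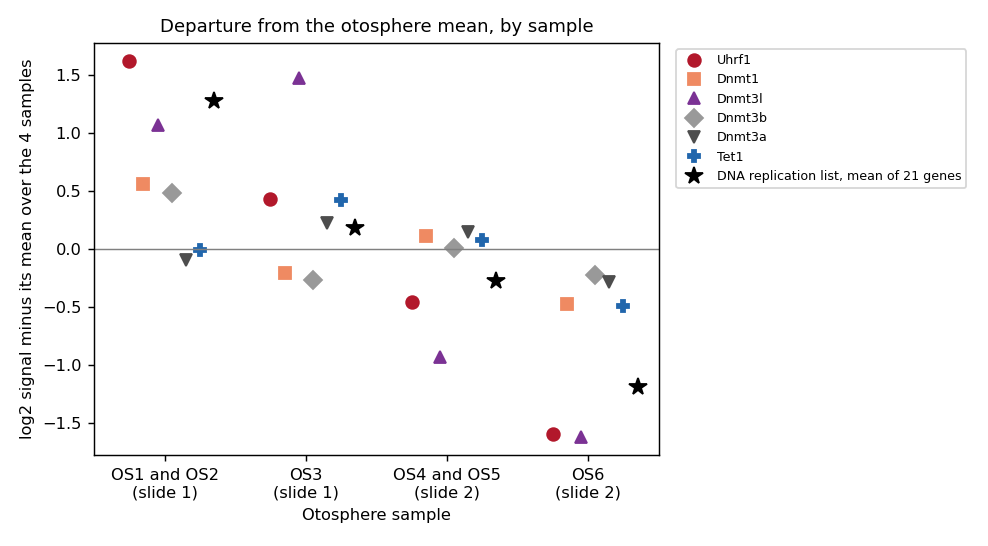
Departure of each otosphere sample (x axis) from the mean of the 4 samples (y axis, log2 signal) for 6 of the genes and for the mean of the 21 replication genes. Points are single samples. Uhrf1 and the replication list fall in the same order, Dnmt3l is high in both samples of slide 1, and Dnmt3a stays within a range of 0.51.

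Tet1, the dioxygenase known for its abundance in pluripotent cells, had ESC signals of 11.54 and 12.35. Otospheres were at 7.93, 8.36, 8.01 and 7.44 and CSE at 10.65, 10.45 and 10.02. The 3 groups did not overlap, and otospheres were lowest. The difference was -4.01 ± 0.32 for otospheres minus ESCs, or 16.1-fold (adjusted p = 4.42e-05), and -1.57 ± 0.34 for CSE minus ESCs (adjusted p = 0.00755, or 0.0590 without ES2). Otospheres were 5.42-fold below CSE (-2.44 ± 0.28, adjusted p = 9.88e-04), and the difference was -2.41 within slide 1 and -2.29 within slide 2.

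The 3 Tet1 probes were alike against ESCs and unlike between the cochlear groups. From ESCs to otospheres the dimmer probes differed by -2.57 and -3.48, both past the threshold (adjusted p = 3.07e-04 and 1.41e-04). From CSE to otospheres they differed by -0.44 and -1.04, neither past it (adjusted p = 0.407 and 0.0629). The mean of the 3 probes differed by -1.31 and did pass it, and from ESCs to otospheres it differed by -3.35 (-4.64 at the main probe with 75th percentile scaling). Since the Tet1 probes were named through calls on these same arrays and further ESC arrays, these differences are not independent evidence.

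**Figure D3:**
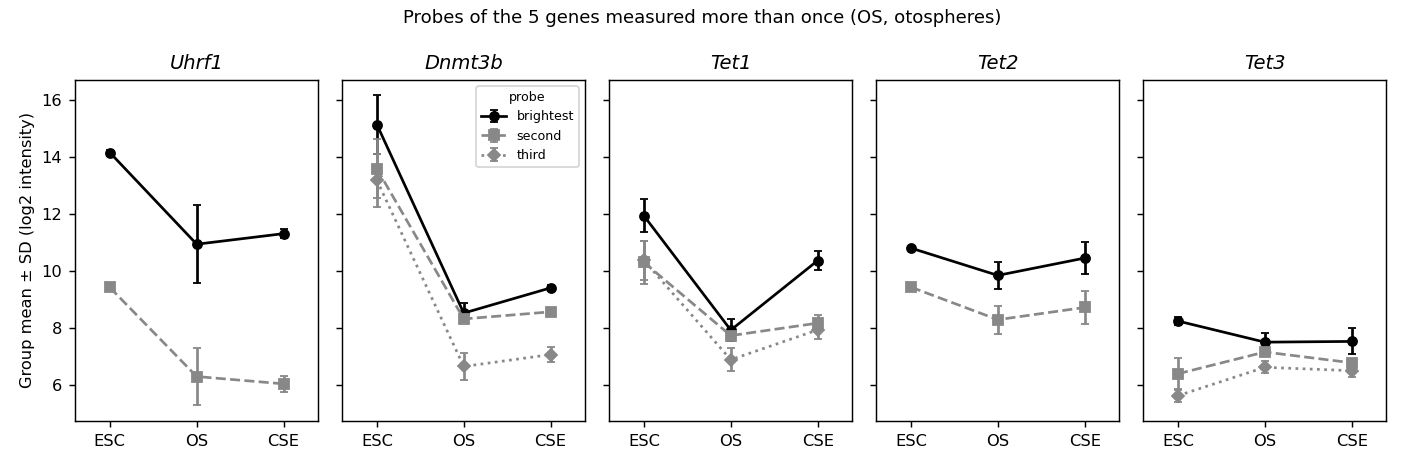
Group mean ± SD of the signal (log2 intensity, y axis) in ESCs, otospheres (OS) and CSE (x axis) for each probe of the 5 genes with more than 1 probe, black for the brightest. Probes of Dnmt3b run in parallel, the brightest Tet1 probe alone rises steeply from OS to CSE, and the Tet3 probes run in opposite directions from ESC to OS.

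Tet2 and Tet3 passed no comparison at their main probes. Tet2, the dioxygenase often studied in blood cells, had signals of 10.78 and 10.85 in ESCs, 9.56, 10.44, 10.00 and 9.43 in otospheres, and 10.25, 11.11 and 10.03 in CSE. Otospheres were below ESCs in every sample, and CSE overlapped with both. The difference was -0.96 ± 0.36 for otospheres minus ESCs (adjusted p = 0.0822), -0.35 ± 0.38 for CSE minus ESCs (adjusted p = 0.560) and -0.61 ± 0.32 for otospheres minus CSE (adjusted p = 0.324). The second probe passed for otospheres minus ESCs alone (-1.14 ± 0.37, adjusted p = 0.0493).

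Tet3, the family member known from the zygote and neurons, had no settled direction. Its main probe was at 8.35 and 8.15 in ESCs, 7.78, 7.19, 7.30 and 7.77 in otospheres and 7.70, 7.02 and 7.89 in CSE. ESCs were highest at this probe, by 0.74 over otospheres (otospheres minus ESCs -0.74 ± 0.29, adjusted p = 0.0891). The other probes had the opposite sign and passed the test, with 0.76 ± 0.23 (adjusted p = 0.0381) at the second and 0.99 ± 0.21 (adjusted p = 0.00680) at the third. The third was not well above background on either ESC array, and by the measured signals otospheres were 1.99-fold and CSE 1.83-fold higher there. CSE minus ESCs was -0.72 ± 0.30 at the main probe (adjusted p = 0.114). Otospheres minus CSE was -0.03, 0.38 and 0.12 at the 3 probes (adjusted p = 0.98, 0.34 and 0.83).

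**Figure D4:**
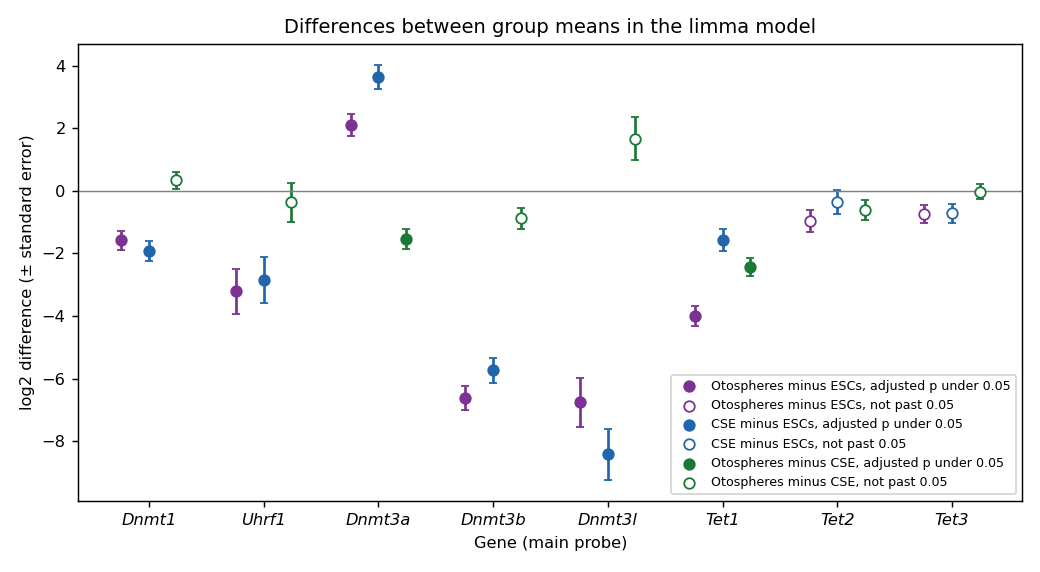
log2 difference between group means ± standard error (y axis) for the main probe of each gene (x axis), in the 3 comparisons of the limma model. Filled points had an adjusted p under 0.05. Dnmt3a is the only gene above 0 against ESCs, and Dnmt3a and Tet1 are the only filled points for otospheres minus CSE.

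Groups did not overlap for all 8 genes between otospheres and ESCs, against 46.2% of probes, for 7 between CSE and ESCs (Tet2 was the exception), against 52.2%, and for Dnmt3a, Dnmt3b and Tet1 between otospheres and CSE, against 23.4%. With 2 ESC samples such a separation is common, as these shares show. At the main probes, the order of the 3 groups was ESCs, CSE, otospheres from high to low for Tet1, with each step past the test (at the other Tet1 probes the last step was not), and CSE, otospheres, ESCs for Dnmt3a, again with each step past it. For Dnmt1, Uhrf1, Dnmt3b and Dnmt3l ESCs were first and the 2 cochlear groups were not told apart by the test, while no step passed at the main probes of Tet2 and Tet3.

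Genes for proteins that read methylated DNA were often higher in the cochlear samples than in ESCs. Of 8 such genes, 5 were higher in otospheres than in ESCs, against 12.1% of all kept probes. In CSE 5 were higher than in ESCs, against 13.2%. By limma 0 were called lower (0 also at an unadjusted p under 0.05), against 15.6% of probes in each comparison. The median difference for otospheres minus ESCs was 1.88. Zbtb4, a zinc finger protein that binds methylated CpG, was higher by 4.25, and Mbd2, a methyl-CpG-binding protein of the NuRD complex, had a mean signal of 12.68 in otospheres and 9.68 in ESCs (adjusted p = 5.41e-05). From ESCs to CSE Zbtb4 rose by 3.55. Otospheres exceeded CSE for Mbd2 (1.38, adjusted p = 0.00442) and for the zinc finger protein Zbtb38 (0.96, adjusted p = 0.0477). The share higher in otospheres than in CSE over all kept probes was 4.84%.

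Of 15 genes of base excision and demethylation, 7 were lower and 1 higher in otospheres than in ESCs, and 10 were lower in CSE than in ESCs. Over all kept probes, 15.6% were lower and 12.1% higher in otospheres than in ESCs, and 15.6% were lower in CSE. Parp1, a sensor of strand breaks (-2.75), and Apex1, the abasic site nuclease (-2.43), fell most in otospheres, while Apobec1, a cytidine deaminase, was higher there (1.57). In CSE the largest falls were those of Gadd45a (-2.80) and Parp1, with a mean signal of 10.96 in CSE and 12.97 in ESCs. Otospheres exceeded CSE for 3 genes namely Gadd45b (3.68), Apobec1 (3.29) and Gadd45a (3.01), against 4.84% of probes. They were lower for 0 by limma (1 at an unadjusted p under 0.05), against 6.19%. Gadd45 genes are stress-inducible and have roles beyond demethylation.

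Of 10 cofactors and regulators of the TET enzymes, 3 were lower and 1 higher in otospheres than in ESCs, and 3 lower and 2 higher in CSE. The shares over all kept probes were 15.6% lower and 12.1% higher in otospheres, and 15.6% and 13.2% in CSE. With 10 genes, counts this small say little about the list beside these shares. Dppa3 and Prdm14, both genes of pluripotent and germ cells, were above background on the ESC arrays and on 0 of the cochlear arrays. ESCs exceeded otospheres at least 60.6-fold for Dppa3 (adjusted p = 6.55e-06) and at least 59.2-fold for Prdm14 (adjusted p = 1.77e-05). With signal above background on the ESC arrays alone, both genes could only be called toward ESCs. Their calls and p-values therefore add little to the count of the list. Vhl, an oxygen-sensing ubiquitin ligase subunit, was higher in otospheres than in ESCs by 0.74, and in CSE by 1.23. Compared with CSE, otospheres had less RNA of Cxxc4 and Cxxc5, which encode CXXC-domain proteins. The differences were -1.02 (adjusted p = 0.0132) and -0.99 (adjusted p = 0.00914). Cxxc4 was near background in otospheres (mean 5.30), with 1 otosphere array and 0 ESC arrays above background. It could therefore hardly be called other than toward CSE. Idh1 and Idh2, which make the cosubstrate of the TET enzymes, and Ogt, their binding partner, passed no comparison, with differences between -0.28 and 0.66.

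Of 12 genes that supply the methyl donor, 6 were lower and 0 higher in otospheres than in ESCs by limma (7 and 1 at an unadjusted p under 0.05), led by the serine hydroxymethyltransferase Shmt1 (-5.04) and by Ahcy, which clears S-adenosylhomocysteine (-3.46). In CSE 7 were lower and 1 was higher. The shares over all kept probes were 15.6% lower and 12.1% higher in otospheres, and 15.6% and 13.2% in CSE. The largest falls in CSE were those of Shmt1 (-5.19) and Ahcy (-3.46). Between otospheres and CSE 0 of the 12 passed by limma, against 11.0% of probes, and 0 at an unadjusted p under 0.05. Of 12 partners of maintenance methylation 6 were lower in otospheres and 5 in CSE than in ESCs, against 15.6% of probes in each comparison. Among those called, Pcna, the replication clamp, and Cbx1, a heterochromatin protein, fell most in otospheres (-1.50 and -1.46) and in CSE (-1.48 and -1.65). Hells differed by more in otospheres (-2.38, adjusted p = 0.107) and CSE (-2.68, adjusted p = 0.0855) but was not called by limma. The 2 ESC samples lay far apart for Hells (SD 2.76), so these differences depend on the ESC line. Between otospheres and CSE 0 of these 12 passed by limma, against 11.0% of probes, and 2 were lower at an unadjusted p under 0.05.

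Of 12 germline genes that are known to be silenced by promoter methylation, Asz1 was not kept. In otospheres 7 of 11 were lower than in ESCs, and the same number in CSE, against 15.6% of probes in each comparison. By limma 0 were called between otospheres and CSE (0 at an unadjusted p under 0.05), against 11.0% of probes. Tex19.1 was at least 384-fold and Mael, of the piRNA pathway, at least 71.0-fold brighter in ESCs than in otospheres (adjusted p = 3.39e-07 and 1.93e-06), and at least 372-fold and 68.4-fold brighter than in CSE. The median difference was -1.89 for otospheres minus ESCs, and -1.66 with 7 genes at their bound, those above background on an ESC array and on 0 otosphere arrays. Most of these genes passed the filter on dim probes through the ESC arrays, so their counts were bound to lean toward ESCs.

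**Figure D5:**
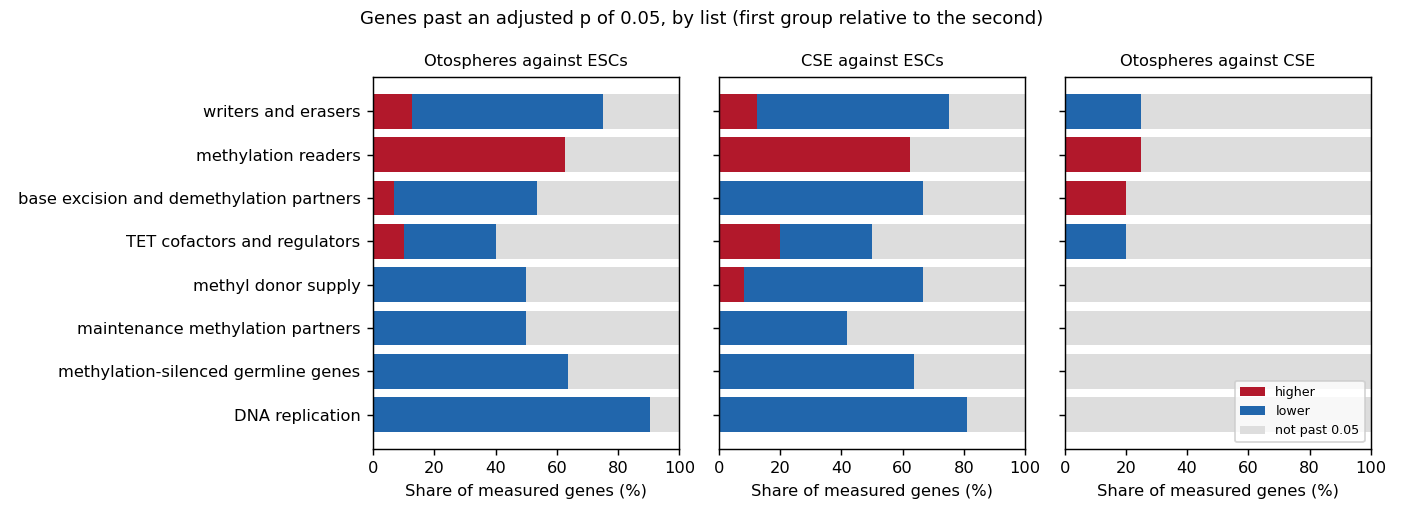
Share of the measured genes of each list (x axis, %) that were higher (red), lower (blue) or not past an adjusted p of 0.05 (grey) in the first group relative to the second, for the 8 genes (top bar) and the 7 other lists. Readers are the list with red and no blue in both comparisons with ESCs, and for otospheres against CSE the 4 lowest bars are all grey.

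The patterns most like those of the members, by Pearson's r over the 9 samples among 18555 genes, are given as a description, since the points share the 3 groups and the 2 slides. Closest to Uhrf1 were Ccnb1, the cyclin of mitotic entry (0.996), Rrm2, a subunit of ribonucleotide reductase (0.995), and Kif22, a chromosomal kinesin (0.994). For Dnmt1 these were Map3k15 (0.992), the centriole gene Stil (0.991) and the mitotic kinase Aurkb (0.983). Dnmt3b was closest to the homeobox gene Rhox5 (0.996), Pnldc1 (0.996) and the nucleoporin Nup85 (0.995), and Dnmt3l to Pop1 (0.993), Zcchc4 (0.993) and Cenps (0.988).

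Dnmt3a, with its own direction, was closest to Farp2 (0.994), Nrep (0.988) and Pofut1 (0.986). Tet1 came closest to Prr3 (0.986), Pmel (0.986) and Rasgrp2 (0.985). Tet2 had the weakest best match, Idh3b (0.926), followed by Slc16a6 (0.919) and Zfp811 (0.910), and Tet3 was nearest to Adam11 (0.989), Wdr38 (0.981) and Cdh8 (0.976).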

How the data were processed

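Total RNA (50 or 100 ng, with no label for which sample had which) had been labelled with Cy3 and hybridized to 11 arrays. The deposited scanner files hold, per the file headers, a median intensity per spot and for the background around it on the linear scale (Feature Extraction 10.7.3.1, not normalized between arrays). A processed intensity and the authors' table of log2 values, background-corrected with limma and quantile-normalized by the authors, served as alternatives. Medians were corrected with normexp (offset 16), converted to log2 and quantile-normalized over 11 arrays with limma 3.58.1 in R 4.3.3. A probe was kept if, on 2 or more arrays, it exceeded by 10% or more the 95th percentile of 308 negative controls. A model of the 3 group means gave the tests, and a probe of a group was called not well above background when no array carried that scanner flag. For a fold given as at least, the dim group took, per array, its signal or the lowest flagged signal, whichever was larger. On OS3 that lowest signal (4.02) lay below the 95th percentile of the negative controls (5.25), so these folds are not strict limits. Scripts were tested on simulated data. Gene names came from the accessions through a RefSeq table and, for Tet1, from the paper's supplementary lists, so 26765 of 55681 probes had a name.

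The genes and lists were chosen with earlier results of these data known. Named list genes are the 2 largest rises and the 2 largest falls past the threshold in each comparison, and likeness takes the 3 highest correlations per gene. Some list genes are not reported by name. Alternatives were the offset, scaling, filter, slide, replicate handling, probe choice, groups in the fit, variance model and leaving out each sample.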

Additional observations from a re-analysis of the deposited data

How the results depend on the processing

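The number of genes past the threshold was 6 for otospheres against ESCs (5 to 8 over 21 alternative settings, and 5 to 8 when 1 sample was left out), 6 for CSE against ESCs (4 to 6, and 4 to 6), 2 for otospheres against CSE (1 to 3, and 1 to 3), and 6 for the F-test (5 to 7, and 5 to 6). For otospheres against CSE it was 1, Tet1, with 75th percentile scaling and 1 without CSE replicate 1. That scaling moved the median of all probes to -0.28 for otospheres minus ESCs and -0.25 for CSE minus ESCs. Signs turned for genes that were not called. Tet3 was 0.34, 0.18 and 0.16 for otospheres minus ESCs, CSE minus ESCs and otospheres minus CSE with the mean of its probes. For otospheres minus CSE it was 0.0486 with a replicate block and -0.28 to 0.15 when 1 sample was left out, above 0 without OS3 (0.08), the OS4 and OS5 mean (0.0444), CSE1 (0.06) or CSE3 (0.15). Uhrf1 for otospheres minus CSE was 0.85 with the replicate block, and when 1 sample was left out it was -0.91 (OS1 and OS2), -0.52 (OS3) and up to 0.16 (OS6). The cause was not tested. With the replicate block over 11 arrays, Dnmt1 lost its call for otospheres minus ESCs (-1.15, adjusted p = 0.0507) and Dnmt3l gained one for otospheres minus CSE (2.87, adjusted p = 0.00113). The replicate numbers were not used as pairs in the main test. Deviations from the group means correlated by 0.356, -0.340 and -0.392 between otosphere and CSE arrays of the same number. So few values of mixed sign cannot decide whether arrays of the same number share a dissection. Of the values of single genes under the alternatives, 475 kept direction and side of the threshold, 11 came to pass it, 8 no longer passed and 10 turned sign. With 2 ESC lines, the spread among ESCs is poorly known, and probes near background have compressed differences.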
